A study of Bos taurus with 86 samples.

Results

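ALAD and HMOX1 code for enzymes at opposite ends of haem metabolism, and their transcripts were measured here in single cattle embryos. The genes were taken as the array rows whose single gene symbol in the platform annotation is ALAD or HMOX1, which gave 4 of the 16416 rows, 2 for each gene. Both rows of a gene carry the same cDNA clone, so they repeat the spot and are not independent probes. All 4 rows gave a value on each of the 86 arrays.

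Haem is built from glycine and succinyl-CoA by a chain of enzymes that starts and ends in the mitochondrion. ALAS1 makes aminolevulinic acid in the mitochondrion, and ALAD condenses it to porphobilinogen in the cytosol. HMOX1, the inducible haem oxygenase, opens the haem ring to give biliverdin, carbon monoxide and free iron; its gene is repressed by BACH1, which haem displaces, and activated by NRF2 under oxidative or electrophilic stress.

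The series hybridised 43 individual Bos taurus embryos against a common reference standard RNA on 2-colour cDNA arrays, each embryo on 2 arrays with the dyes swapped. The labels place 14 embryos in the group AI, 14 in IVD and 15 in IVF; AI is taken here to stand for artificial insemination, IVF is in vitro fertilization, and what IVD abbreviates is not spelled out in the labels. The series title names in vitro maturation, fertilization and culture as the effects studied; breed, age, developmental stage and the make-up of the reference were not stated in the labels. In every group the embryo's RNA was linearly amplified in 3 rounds and that of the reference in 2. Nothing states that embryos came from separate donors or matings, so the p-values below measure only the spread between these embryos.

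Each value below is a log2 ratio of embryo over reference, centred on the median of its array and averaged over the dye swap. The labels do not state which dye is the numerator of the deposited ratios. Read as Cy5 over Cy3, the group mean was above 0 for 13 of the 14 tested trophectoderm markers in AI and for 12 of 14 in both IVD and IVF. The highest was PTGS2, with 5.07 in AI, and the exceptions were ELF3, at -0.41 in AI, -0.62 in IVD and -0.18 in IVF, and TFAP2A, at -0.11 in IVD and -0.12 in IVF. This direction was taken as likely, and every sign below would turn with the other one. A log2 ratio compares 1 gene between embryo and reference, so the ratios of ALAD and HMOX1 do not say which transcript was more abundant.

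The IVD arrays stood apart from the others. The mean number of rows without a value per array was 1001.5 to 1871.5 for IVD embryos, 3613 to 5713 for AI embryos and 3076.5 to 5099.5 for IVF embryos. The correlation of an embryo's dye-swapped arrays was 0.589 to 0.767 for IVD, 0.816 to 0.912 for AI and 0.717 to 0.911 for IVF. The number of missing rows of IVD embryos did not overlap that of the other groups, so this property and the IVD group cannot be told apart. Of 20 trophectoderm markers, 14 were tested, and their median per embryo lay between 1.82 and 2.83 in AI, 0.93 and 3.14 in IVD, and 1.34 and 2.30 in IVF. None of the 14 erythroid markers was on the array. The 2 tested leukocyte markers, CD14 and CD163, had group means below 0 in all 3 groups. The median of the 3 tested cumulus and granulosa markers was at most 0.12 in an AI embryo, 0.28 in an IVD embryo and 0.21 in an IVF embryo, with lowest values of -0.53, -0.33 and -0.26 in that order. VIM, the tested gene of the oviduct and endometrium list, lay between -5.85 and -4.09 in every embryo. In these bulk samples fewer cells of a type and less RNA per cell cannot be told apart.

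ALAD was above the reference in all AI embryos and lower in both other groups. Its ratio in the 14 AI embryos had a lowest value of 0.99, a median of 1.52 and a highest value of 2.15. The 14 IVD embryos ran from -1.01 through a median of -0.20 to 0.24, and the 15 IVF embryos from -0.37 through 0.58 to 1.16. All 14 AI embryos were thus above 0, as were 13 of 15 IVF embryos and 6 of 14 IVD embryos.

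The mean of ALAD over the AI embryos was 1.56 ± 0.32 (SD, n = 14). IVF embryos averaged 0.57 ± 0.48 (SD, n = 15) and were followed by IVD embryos with -0.24 ± 0.37 (SD, n = 14), so the order was AI, IVF, IVD. These levels and their differences were what drew attention to the gene, and they are given as a description with no test. IVD minus AI was -1.81 (SE 0.15), a 3.50-fold lower ratio, and the groups did not overlap: all 14 IVD embryos lay below the lowest AI embryo. Over all 6278 features, 1.74% had all IVD values below all AI values; ALAD was chosen from this contrast, and nothing is read from that share. IVF minus AI was -0.996 (SE 0.15), or 1.99-fold lower, and here the ranges met, with 11 of 15 IVF embryos below the lowest AI embryo. IVF minus IVD was 0.81 (SE 0.15), with 11 of 15 IVF embryos above the highest IVD embryo. The IVF and IVD comparisons with AI share the AI embryos.

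HMOX1 ran in the other direction between the groups. Its ratio was below 0 in all 14 AI embryos, with a lowest value of -2.64, a median of -2.19 and a highest value of -0.44. The IVD embryos ran from -2.01 through a median of -0.70 to 0.42, with 4 of 14 above 0. The IVF embryos ran from -1.80 through 0.17 to 1.44, with 9 of 15 above 0. The ranges of all 3 groups overlapped, and IVF embryos were found both above and well below the reference.

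HMOX1 averaged -0.020 ± 0.94 (SD, n = 15) over the IVF embryos and -0.61 ± 0.73 (SD, n = 14) over the IVD embryos. The AI embryos came last with -1.93 ± 0.71 (SD, n = 14). IVF minus AI was 1.91 (SE 0.29), a 3.77-fold higher ratio, with 11 of 15 IVF embryos above the highest AI embryo. IVD minus AI was 1.32 (SE 0.29), or 2.50-fold higher, with 6 of 14 IVD embryos above the highest AI embryo. The neighbours IVF and IVD differed by 0.59 (SE 0.29), less than the SD within either group, and 5 of 15 IVF embryos lay above the highest IVD embryo. The order of the groups for HMOX1 was therefore IVF, IVD, AI, and only its lowest place was held apart by more than the spread within groups.

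**Figure D1:**
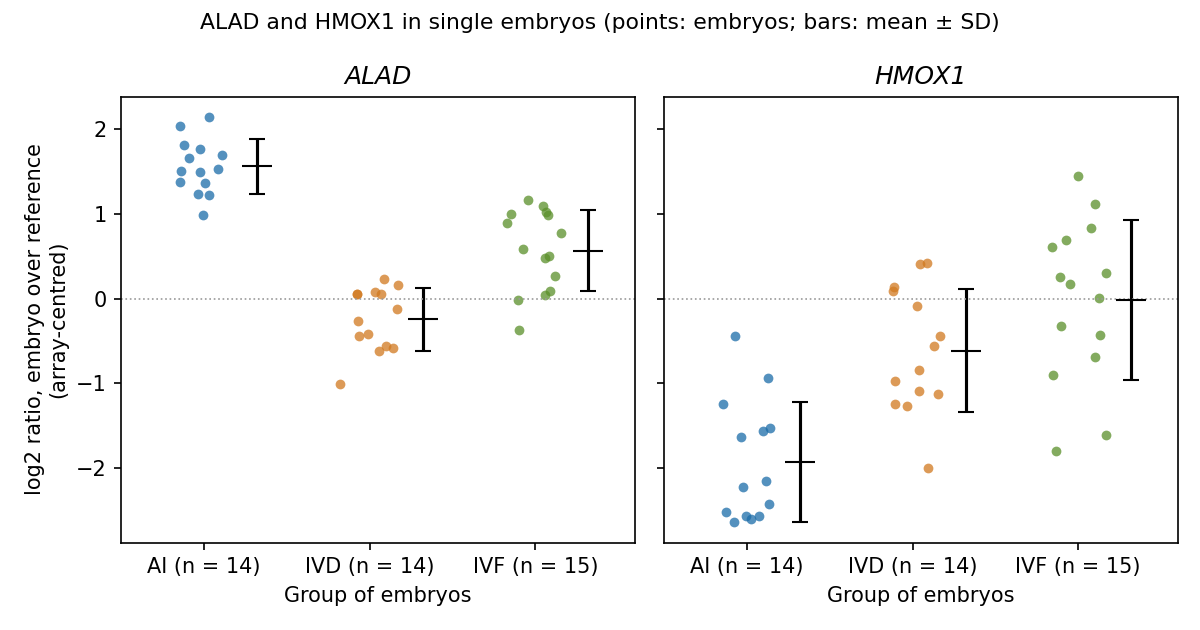
Log2 ratio of embryo over reference (vertical axis) of ALAD and HMOX1 in each of the 43 embryos by group, 1 point per embryo, with the group mean and SD. ALAD points of IVD, up to 0.24, lie wholly below those of AI, from 0.99 upwards, whereas HMOX1 points overlap between all groups and spread most in IVF.

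The difference of the genes' ratios within an embryo, HMOX1 minus ALAD, does not depend on how an array is centred. It ran from -4.39 through a median of -3.81 to -1.67 in AI, from -2.05 through -0.40 to 0.92 in IVD, and from -2.09 through -0.39 to 1.81 in IVF. HMOX1 had the higher ratio in 0 of 14 AI, 5 of 14 IVD and 5 of 15 IVF embryos. The mean gap of AI embryos was -3.50 ± 0.80 (SD, n = 14). That of IVD embryos was -0.37 ± 0.98 (SD, n = 14) and that of IVF embryos -0.59 ± 1.07 (SD, n = 15). The gap was 2.91 (SE 0.36) higher in IVF than in AI and 3.12 (SE 0.36) higher in IVD than in AI. Between IVF and IVD it differed by -0.21 (SE 0.36). Of these groups IVD had the lower ALAD and IVF the higher HMOX1.

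The opposite direction of the genes was a pattern between groups; within groups the correlation was negative among IVD embryos and had no settled sign among AI and IVF embryos. Among the 14 IVD embryos Pearson's r was -0.524 and Spearman's rho -0.538. When each embryo was left out in turn r ran from -0.693, without embryo 5, to -0.477. In IVD r was -0.666 with the first row of each gene alone, -0.377 with the second and -0.397 without centring. Among AI embryos r was -0.060 and rho 0.134, and among IVF embryos r was -0.036 and rho -0.0071. Leaving out each embryo in turn gave -0.174 to 0.157 for AI embryos and -0.219 to 0.259 for IVF embryos, the highest without embryo 13. In IVF r was -0.383 with the embryo in Cy3 and 0.258 with the embryo in Cy5. The genes lay on opposite sides of their group medians in 10 of 14 IVD, 6 of 14 AI and 6 of 15 IVF embryos. Without the 2 embryos farthest from the ALAD median, the coefficient was -0.464 for IVD, -0.120 for AI and 0.357 for IVF embryos. The correlations are given with no p, since the genes were chosen for this relation, and the difference between groups was not tested; both genes of an embryo share its arrays and its amplification.

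Single embryos show how the pattern was made up. IVF embryo 13 had the lowest ALAD of its group, -0.37, together with the highest HMOX1 of all embryos, 1.44. IVF embryo 11 was low in both, with 0.09 for ALAD and -1.80 for HMOX1, and IVF embryo 2 was high in both, with 0.99 and 1.12. Opposite and parallel deviations thus occurred within the same group. In IVD, embryo 8 had the lowest ALAD of all, -1.01, with HMOX1 at -0.09, whereas embryo 3 had the highest ALAD of the group, 0.24, with HMOX1 at -1.27. IVD embryo 5 had the highest HMOX1 of its group, 0.42, at an ALAD of 0.05, above the group median of -0.20. The repeated ALAD spots of that embryo read -0.25 and 0.35. In AI, embryo 17 had the highest HMOX1, -0.44, at an ALAD of 1.23, inside the range of its group. The 4 IVD embryos labelled 12_1 to 12_4, whose common number may mark a shared origin, ranged from -0.58 to 0.07 in ALAD and from -0.85 to 0.41 in HMOX1, a wide part of the group's range.

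**Figure D2:**
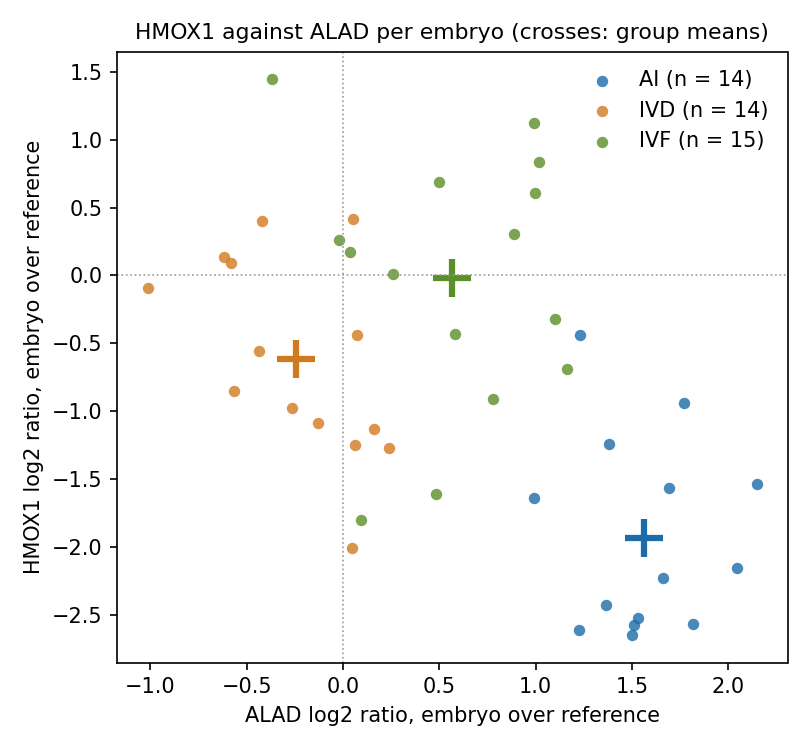
HMOX1 log2 ratio (vertical axis) against ALAD log2 ratio (horizontal axis), both embryo over reference, 1 point per embryo, coloured by group. AI embryos sit at high ALAD and low HMOX1, IVD embryos at low ALAD with a downward slope, r -0.524, and IVF embryos between and above them, r -0.036.

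HMOX1 varied between embryos of a group more than most features did. Its SD of 0.94 in IVF stood at the 96.8th percentile of the SDs of all features there, against a median SD of 0.42, and its SDs in IVD and AI stood at the 94.3rd and 87.6th percentiles. ALAD was ordinary in this respect, at the 33.8th percentile in AI, the 59.6th in IVD and the 61.6th in IVF. The repeated spots of HMOX1 differed within an embryo with an SD of 0.046 to 0.117 depending on the group, and those of ALAD with an SD of 0.112 to 0.192. The dye-swapped arrays of an embryo differed more than its spots: the SD of the HMOX1 dye gap was 0.634 in IVF, 0.352 in AI and 0.149 in IVD, which corresponds to 0.317, 0.176 and 0.074 on the mean of 2 arrays.

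**Figure D3:**
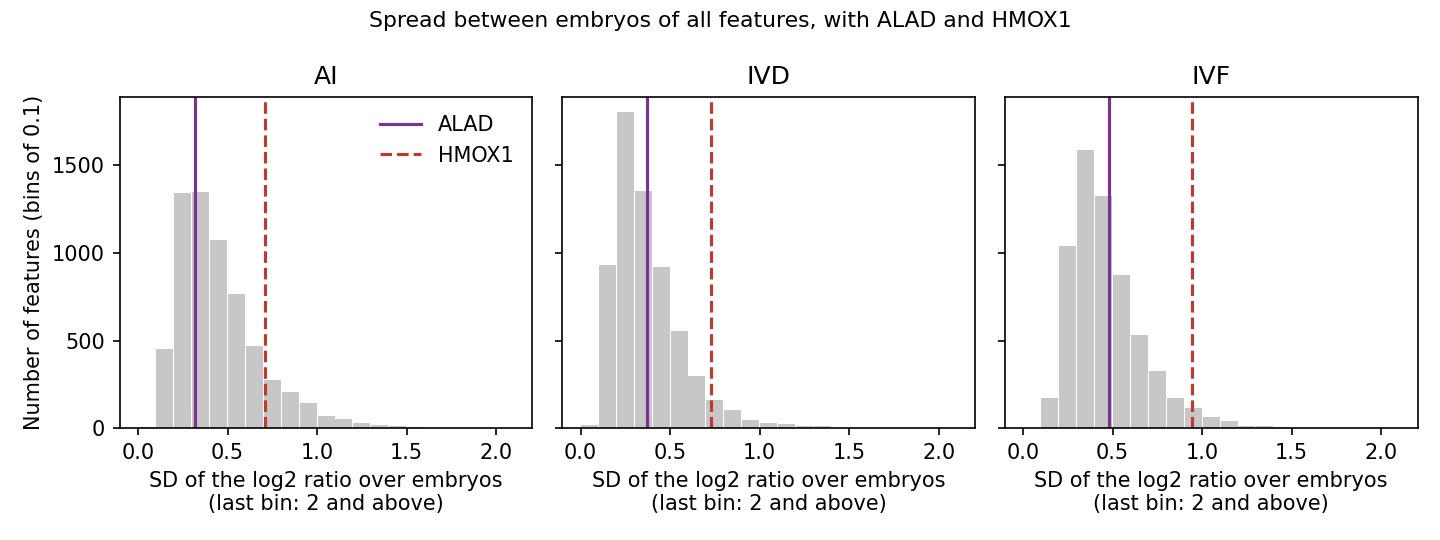
Number of features (vertical axis, bins of 0.1) by the SD between embryos of the log2 ratio (horizontal axis, last bin 2 and above) in each group, with ALAD and HMOX1 marked. HMOX1 lies in the upper tail in all 3 groups, up to the 96.8th percentile in IVF, and ALAD near the middle.

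The dye-swapped arrays gave the same order of groups. Across the 43 embryos the value from the array with the embryo in Cy3 correlated with that from the Cy5 array at 0.935 for ALAD and 0.931 for HMOX1, and the values from repeated spots at 0.985 and 0.996. Group means of ALAD with the embryo in Cy3 were 1.39 in AI, 0.34 in IVF and -0.24 in IVD, and in Cy5 they were 1.73, 0.79 and -0.24. A dye offset was thus present for ALAD in AI and IVF, at -0.34 and -0.45 (Cy3 minus Cy5), and near 0 in IVD. For HMOX1 the means were -1.93, -0.05 and -0.74 in Cy3 and -1.94, 0.01 and -0.49 in Cy5, in the order AI, IVF, IVD. The widest disagreement was that of HMOX1 in IVF embryo 11, where the dyes differed by 1.18.

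**Figure D4:**
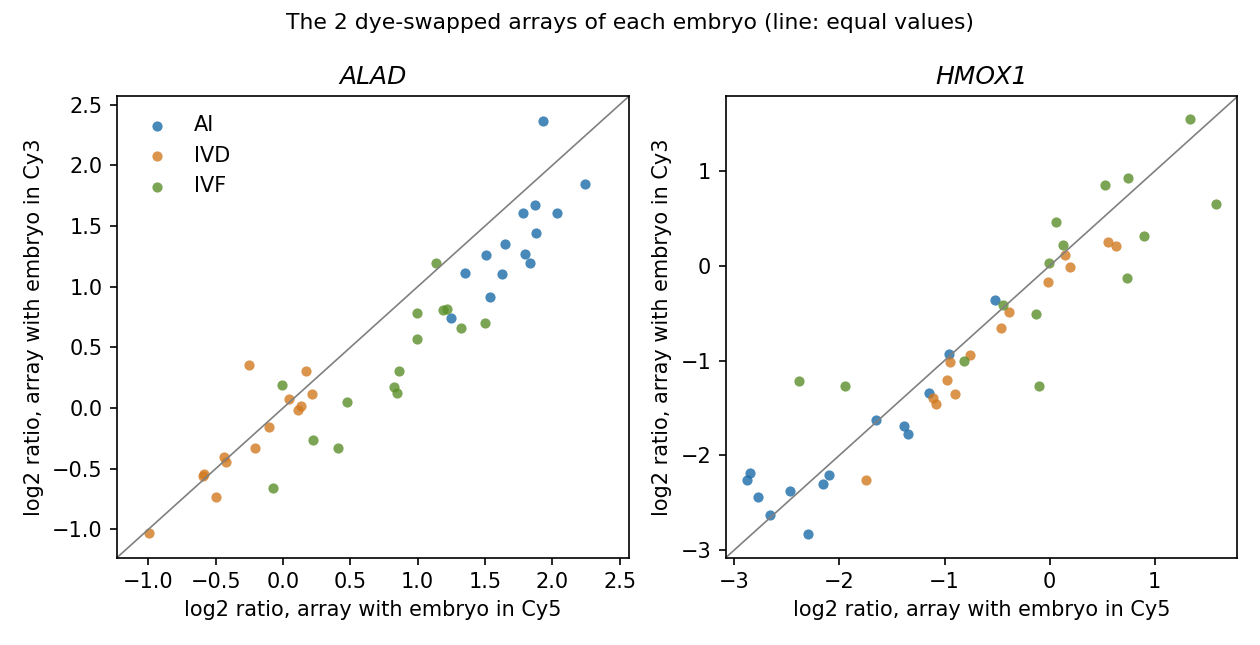
Log2 ratio from the array with the embryo in Cy3 (vertical axis) against that with the embryo in Cy5 (horizontal axis), 1 point per embryo, for ALAD and HMOX1, with the line of equality. Points follow the line, r 0.935 and 0.931, and ALAD of AI and IVF embryos lies below it on average.

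The array-wide dye bias divided the embryos in a way that partly followed the groups, so the differences were also taken inside each cluster of embryos with a like dye bias. The first cluster held 5 AI embryos, all 14 IVD embryos and 1 IVF embryo, the second 9 AI and 13 IVF embryos, and the third 1 IVF embryo. Within the first, ALAD averaged 1.79 ± 0.31 (SD, n = 5) over its AI embryos and -0.24 ± 0.37 (SD, n = 14) over the IVD embryos. IVD minus AI there was -2.03 for ALAD and 1.13 for HMOX1. Within the second, IVF minus AI was -0.84 for ALAD and 2.07 for HMOX1. These differences from AI had the same direction within the clusters as over all embryos. IVF minus IVD could not be taken within a cluster, since the only cluster with both groups held 1 IVF embryo. With the cluster as a block it was 1.14 (SE 0.23) for ALAD, against 0.81 without. For HMOX1 it was 0.59 (SE 0.47) with the block and 0.59 (SE 0.29) without. Of 12 relations between either gene and the number of missing rows or the dye-swap correlation within a group, 1 had a permutation p below the threshold of 0.05 before adjustment, ALAD against the dye-swap correlation in AI (Pearson's r -0.659, permutation p = 0.0104, Spearman's rho -0.657, permutation p = 0.0126, adjusted p = 0.126 and 0.152). Without the 2 AI embryos farthest from the median of the dye-swap correlation r was -0.581. The same relation in IVF went from 0.171 to -0.541 without its 2 farthest embryos. None of the 12 passed after adjustment, which with 14 or 15 embryos per group does not show that a relation is absent.

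The rest of the haem, iron and NRF2 genes were tested with limma over all 6278 features, with Benjamini-Hochberg adjustment and a threshold of 0.05. The 9 lists were chosen with earlier results of these data known. They hold 116 further genes, of which 45 were on the array and 39 could be tested. In IVF against AI, 10 of the 39 were higher and 9 lower, or 48.7%, where 37.7% of all features passed. In IVD against AI 8 were higher and 11 lower, also 48.7%, beside 46.5% of all features, and in IVF against IVD 10 were higher and 8 lower, 46.2% beside 47.6%. The median difference of the 39 genes was 0.027, -0.053 and -0.021 in these comparisons, beside 0.041, 0.058 and -0.0088 over all features. These shares lie near those of all features, most clearly in the comparisons with IVD.

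Markers of other cell types also differed between the groups in the same fit, beside ALAD and HMOX1. Of the 3 tested cumulus and granulosa markers, CYP11A1, a steroidogenic enzyme, rose in IVF by 0.41 and in IVD by 0.40 against AI (limma adjusted p = 0.00226 and 0.00195), from a mean of -0.19. The oestrogen-synthesizing CYP19A1 rose in IVF by 0.28 (limma adjusted p = 0.00881). CYP19A1 in IVD (0.065) and TNFAIP6 in IVF (-0.030) and IVD (0.57) did not pass. The calls were 66.7% of this list in IVF and 33.3% in IVD, beside 37.7% and 46.5% of all features. With so few genes these shares set nothing apart from the background. VIM fell in IVD by 1.07 (limma adjusted p = 4.65e-14) and FN1, a matrix gene of the primitive endoderm list, fell by 0.78 in IVF and 0.42 in IVD (limma adjusted p = 1.33e-05 and 0.0109). COL4A1 of the same list fell in IVD by 0.67 (limma adjusted p = 3.47e-04), with single rows from 2 clones running from -1.20 to 0.018. In IVF its difference of -0.25 did not pass. KLF4, the tested gene of the inner cell mass list, fell by 0.46 in IVF and rose by 0.61 in IVD (limma adjusted p = 0.0363 and 0.00478). Of the 14 trophectoderm markers 4 fell in IVF, or 28.6% beside 37.7% of all features. In IVD 4 rose and 5 fell, or 64.3% beside 46.5%. Among these, TFAP2C and PTGS2 rose by 1.04 and 1.03 (limma adjusted p = 2.83e-06 and 1.09e-07), and KRT8 fell by 0.81 (limma adjusted p = 1.46e-05). Single rows of TFAP2C, from 2 clones, ran from 0.32 to 2.00, so its size depended on the clone. The part of these shifts in the differences of ALAD and HMOX1 was not tested.

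Of the enzymes of haem synthesis, ALAS1 was the other one on the array. ALAS1, which makes the substrate of ALAD and is the rate-limiting enzyme outside red cells, had a mean of -0.27 ± 0.36 (SD, n = 14) over AI embryos. Its mean was -1.19 ± 0.30 (SD, n = 14) over IVD embryos and -0.55 ± 0.39 (SD, n = 15) over IVF embryos. It fell in IVD against AI by 0.91 (SE 0.13, limma adjusted p = 5.09e-07) and was higher in IVF than in IVD by 0.63 (SE 0.13, limma adjusted p = 1.23e-04). Its difference of -0.28 (SE 0.13) between IVF and AI did not pass (limma adjusted p = 0.0882). Across all embryos the ratios of ALAS1 and ALAD correlated at 0.510, but after removing group means the correlation was -0.380, so embryos with more ALAD than their group tended to have less ALAS1; this is a description with no test. The IVF against IVD call of ALAS1 was lost with the dye-bias cluster as a block (limma adjusted p = 0.0653) and on the deposited values without centring (limma adjusted p = 0.104).

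None of the 3 tested genes of transport for haem synthesis passed in any comparison of the fit used here. SLC25A38, which carries glycine into the mitochondrion, differed by 0.027 in IVF and 0.13 in IVD against AI. TMEM14C, a mitochondrial carrier of porphyrin precursors, differed by -0.19 and 0.039, with single rows, from 2 clones, running from -0.44 to 0.066 in IVF, and FLVCR2, a transporter of the haem exporter family, by -0.18 and -0.24. Their limma adjusted p-values ranged from 0.0672 to 0.927 over the 3 comparisons. TMEM14C in IVF minus IVD, at -0.23, passed under 2 alternatives, quantile normalization (-0.25, limma adjusted p = 0.0396) and the deposited values without centring (-0.47, limma adjusted p = 0.00570).

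Of the other genes of the haem breakdown list, POR, the reductase that supplies electrons to haem oxygenase, and BLVRB, biliverdin reductase B, were tested. The other biliverdin reductase gene of the list, BLVRA, was not on the array. POR averaged -0.52 in AI, 0.38 in IVD and -0.24 in IVF, and it rose in IVD against AI by 0.91 (SE 0.13, limma adjusted p = 3.11e-07). In IVF it lay 0.62 below IVD (SE 0.13, limma adjusted p = 9.86e-05), and its 0.29 over AI did not pass (limma adjusted p = 0.0677) except with the embryo in Cy5 alone (0.30, limma adjusted p = 0.0498). POR was thus highest in IVD, where HMOX1 was intermediate. BLVRB was lower in IVD than in AI by 0.33 (SE 0.13, limma adjusted p = 0.0325) and higher in IVF than in IVD by 0.52 (SE 0.13, limma adjusted p = 8.26e-04), with 0.19 for IVF against AI (limma adjusted p = 0.247). The IVD against AI call of BLVRB was lost under 4 alternatives, with adjusted p up to 0.753, and the IVF against IVD call under 2. HMOX2, the constitutive haem oxygenase, had values in 10 of 14 AI, 14 of 14 IVD and 11 of 15 IVF embryos but not in enough embryos per row for the test, and its medians were 0.20, -0.10 and 0.32.

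Both tested genes of the haem binding and uptake list rose in IVF against AI, where 37.7% of all features passed. With 2 genes this sets nothing apart from the background. ABCG2, an exporter that carries porphyrins and haem, rose by 1.35 (SE 0.31, limma adjusted p = 6.71e-04) in IVF and by 1.26 (SE 0.32, limma adjusted p = 0.00127) in IVD, from a mean of -2.76 in AI. The size depended on the dye, at 0.62 in IVF with the embryo in Cy3 and 2.05 with the embryo in Cy5. GAPDH, a glycolytic enzyme that also binds haem, rose in IVF by 0.51 (SE 0.17, limma adjusted p = 0.0150) and fell in IVD by 0.56 (SE 0.17, limma adjusted p = 0.00654) against AI. The difference of 1.07 between IVF and IVD passed in all alternatives run on it, while each call against AI was lost in some.

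Of 5 genes of haem proteins and of the complexes that hold them, 2 fell in IVF and 4 in IVD against AI, or 40% and 80% beside 37.7% and 46.5% of all features, and none rose. With so few genes these shares set nothing apart from the background. UQCRH, a subunit of complex III, fell by 0.51 (SE 0.12, limma adjusted p = 8.90e-04) in IVF and by 0.49 (SE 0.12, limma adjusted p = 0.00107) in IVD. SDHD, a membrane anchor of complex II that helps hold its haem, fell by 0.72 in IVF (SE 0.14, limma adjusted p = 7.15e-05) and by 0.47 in IVD (SE 0.14, limma adjusted p = 0.00523). The cytochrome b5 genes CYB5A and CYB5B fell in IVD by 0.56 and 0.47 (limma adjusted p = 0.0335 and 8.94e-05), and CYB5B was 0.58 higher in IVF than in IVD (limma adjusted p = 1.92e-06). Single rows of CYB5B, from 2 clones, ran from -0.81 to -0.19 in IVD minus AI. Catalase, CAT, a haem enzyme that removes hydrogen peroxide, stood at 0.050 in IVF and 0.11 in IVD against AI and did not pass. On the deposited values without centring all 4 calls in IVD were lost, as was that of CYB5B between IVF and IVD (0.34, limma adjusted p = 0.0721).

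Iron released from haem is stored in ferritin, and FTH1, the ferritin heavy chain, differed by -0.045 in IVF and -0.027 in IVD against AI, neither passing. Of the 7 tested genes of iron storage and transport, 3 rose and 2 fell in IVF, and 1 rose in IVD. These were 71.4% and 14.3%, beside 37.7% and 46.5% of all features, and so few genes set nothing apart from the background. PCBP1, a chaperone that delivers iron to ferritin, rose in IVF by 0.77 (SE 0.12, limma adjusted p = 1.60e-06) and its relative PCBP2 by 0.34 (SE 0.12, limma adjusted p = 0.0230), whereas the means of PCBP1 in IVD and AI were 0.193 and 0.192. NCOA4, the receptor for breakdown of ferritin, rose by 0.39 in IVF and 0.46 in IVD (limma adjusted p = 0.0108 and 0.00229). Transferrin, TF, and the iron importer SLC11A2 fell in IVF by 0.46 and 0.41 (limma adjusted p = 5.86e-04 and 0.0109). The PCBP1 call held in all alternatives, those of PCBP2, NCOA4 and SLC11A2 did not.

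In iron-sulphur assembly the 3 tested genes did not move together. ISCA1, an assembly factor, fell by 0.61 in IVF and 0.54 in IVD (limma adjusted p = 0.00274 and 0.00656). ISCU, the scaffold protein, rose in IVD by 0.58 (limma adjusted p = 0.00872) and lay at -0.095 in IVF, and HSPA9, the mitochondrial chaperone of this pathway, fell in IVD by 0.36 (limma adjusted p = 0.0153). The ISCU call was lost with the dye-bias cluster as a block (limma adjusted p = 0.167), the IVD call of ISCA1 without centring (limma adjusted p = 0.189), and that of HSPA9 under 4 alternatives.

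Of the regulators of HMOX1, NFE2L2, the gene of NRF2, rose in IVF against AI by 0.54 (SE 0.15, limma adjusted p = 0.00394), from 0.65 ± 0.51 (SD, n = 14) to 1.19 ± 0.39 (SD, n = 15), and stood at -0.065 in IVD (limma adjusted p = 0.747). KEAP1, which holds NRF2 for degradation, rose in IVD by 0.96 (SE 0.11, limma adjusted p = 1.56e-09) and was at -0.11 in IVF (limma adjusted p = 0.441), a difference of -1.06 between IVF and IVD (limma adjusted p = 8.82e-11). The group with the highest mean HMOX1, IVF, had the highest mean NFE2L2, and IVD had the highest mean KEAP1. The NFE2L2 difference between IVF and IVD, 0.60 (limma adjusted p = 8.23e-04), was lost under 2 alternatives. It was 0.23 with the dye-bias cluster as a block and 0.36 without centring, with limma adjusted p up to 0.487. Over embryos HMOX1 correlated with NFE2L2 at 0.228 and with KEAP1 at 0.112, and after removing group means at -0.093 and 0.069. The part of NRF2 in the HMOX1 differences was not tested. HIF1A, the oxygen-regulated factor, rose in IVD by 1.08 (SE 0.23, limma adjusted p = 2.32e-04), with 0.52 in IVF (limma adjusted p = 0.0697), a difference that passed with the embryo in Cy5 alone (0.73, limma adjusted p = 0.022). HMGB1 and the ubiquitin ligase subunit RBX1 fell in IVF by 0.73 and 0.32 (limma adjusted p = 8.67e-04 and 0.0390), the latter call being lost under 4 alternatives. The HMGB1 difference between IVF and IVD, -0.59 (limma adjusted p = 0.00439), went to -0.04 with the dye-bias cluster as a block. Transcript levels of NFE2L2 and KEAP1 do not measure the activity of NRF2, which is set largely by protein turnover.

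Among 10 tested targets of NRF2, 4 rose and 2 fell in IVF, and 2 rose and 2 fell in IVD, against AI, or 60% and 40% beside 37.7% and 46.5% of all features. TXNRD1, thioredoxin reductase, averaged 1.06 ± 0.45 (SD, n = 14) over AI embryos and 1.38 ± 0.39 (SD, n = 14) over IVD embryos. Over IVF embryos it averaged 2.36 ± 0.38 (SD, n = 15), an IVF minus AI difference of 1.30 (SE 0.15, limma adjusted p = 9.23e-09). ME1, malic enzyme, and GSR, glutathione reductase, rose in IVF by 0.87 and 0.65 (limma adjusted p = 0.0141 and 0.00119), and TKT, transketolase, fell by 0.59 (limma adjusted p = 0.00193). In IVD, TXN, thioredoxin, rose by 1.21 (SE 0.16, limma adjusted p = 5.69e-08) and the quinone reductase NQO1 by 0.49 (limma adjusted p = 0.00139), while AKR1A1 and TKT fell by 0.55 and 0.42 (limma adjusted p = 0.00229 and 0.0203). TXN was 1.16 lower and TXNRD1 0.98 higher in IVF than in IVD (limma adjusted p = 7.48e-08 and 6.41e-07). The list of targets therefore held genes that rose and fell in both groups. The ME1 call was lost with quantile normalization and with the dye-bias block, and the IVD calls of NQO1, AKR1A1 and TKT were each lost under 2 or 3 alternatives.

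**Figure D5:**
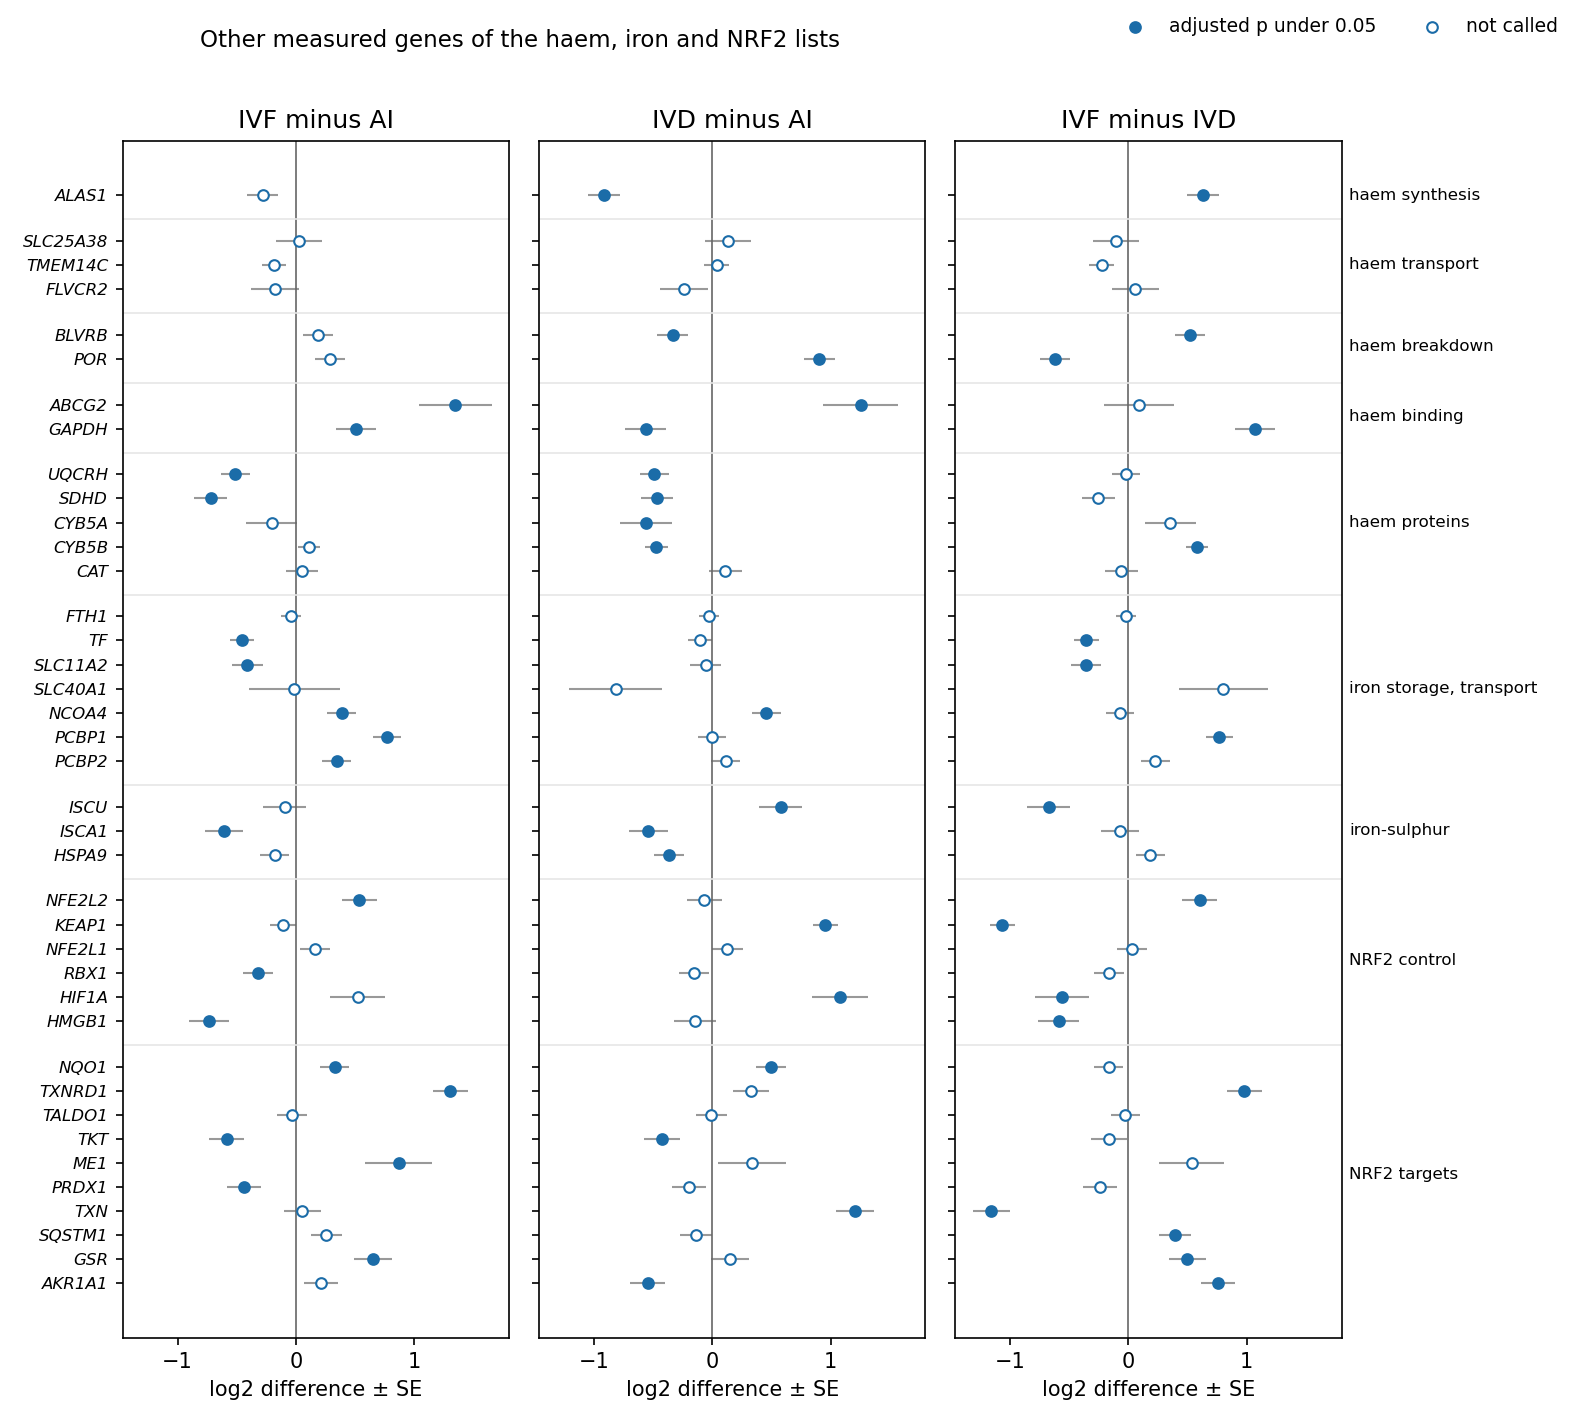
Difference of the mean log2 ratio (horizontal axis) with its SE for the 39 other tested genes, grouped by list, in IVF minus AI, IVD minus AI and IVF minus IVD; filled points passed the limma threshold. ABCG2 and TXNRD1 are farthest from 0 in IVF minus AI, at 1.35 and 1.30, and ABCG2 and TXN in IVD minus AI, at 1.26 and 1.21; no list moves wholly one way in all 3 comparisons.

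The genes whose ratio followed that of ALAD most closely over the 43 embryos, among 3241 named genes with values in at least 36 embryos, were NDUFV1, a core subunit of complex I (r 0.830), the kinase DYRK3 (0.804), the mitochondrial acetyl-CoA synthetase ACSS1 (0.802), the ribosomal protein gene RPS14 (0.798) and the splicing-factor kinase SRPK2 (0.794). All 5 were lower in IVD than in AI, by 1.54, 0.91, 0.99, 0.95 and 0.86 in that order in the fitted differences. After the group means were taken off, the closest were ARHGEF26 (r 0.535), RDH10 (0.524), PITPNM2 (0.506, 42 embryos), ACSS1 (0.505) and SRPK2 (0.490). ACSS1 and SRPK2 were thus among the closest by both measures. Their IVF minus IVD differences were 0.24 and 0.0083, beside 0.81 for ALAD, so SRPK2 did not separate IVF from IVD as ALAD did. These correlations are a description with no test, over embryos that share the array platform and the reference.

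For HMOX1 the closest over all embryos were PGM3, an enzyme of hexosamine synthesis (r 0.789), SMARCE1, a chromatin remodelling subunit (0.760, 39 embryos), the kinase TEC (0.749), SFN, an epithelial 14-3-3 protein (0.740), and PARN, a poly(A) ribonuclease (0.710). With group means removed they were KRT19, a keratin of trophectoderm (r 0.692), AKR1B1, aldose reductase (0.651), SMARCE1 (0.611), TEC (0.593) and SDC1, a cell-surface proteoglycan (0.584). Embryos with more HMOX1 than their group thus tended to have more KRT19; the part of cell composition in this was not tested. Of the NRF2 targets, TXNRD1 ranked 12 of 3241 for likeness to HMOX1 over all embryos (r 0.653) and NQO1 ranked 46 (r 0.569), while the other 8 tested targets ranked from 376 (GSR, r 0.353) to 3036 (TKT, r -0.418). Within groups the correlations of TXNRD1 and NQO1 were 0.336 and 0.448, and that of ALAS1 with HMOX1 was 0.391.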

How the data were processed

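The data are the deposited log2 ratios of 2-colour cDNA arrays, 1 column per array, as the authors made them; for the image analysis and normalization behind them, the method was not stated in the labels. Array medians ran from -2.22 to 1.06 and 20.1% of values were missing. The median over the 5558 rows with a value on all arrays was subtracted from each array, the sign was flipped where the embryo carried Cy3, and the 2 arrays of an embryo were averaged. Rows with values in at least 7 embryos of each group were kept (10757) and averaged by gene symbol, where the platform annotation gives a single one, to 6278 features. limma 3.58.1 in R 4.3.3 was fitted to all 43 embryos with 3 group means, with Benjamini-Hochberg adjustment and a threshold of 0.05, and checked on simulated data. ALAD, HMOX1 and the gene lists were chosen with earlier results of these data known, so differences of ALAD and HMOX1 have no p. The adjusted p-values of the other list genes and markers are likewise not those of genes chosen blind. Genes of the haem synthesis, transport and breakdown lists are named if tested; from other lists, up to 4 with the largest called difference per comparison and their family members; for likeness, the 5 highest correlations. Array number limits the precision.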

Additional observations from a re-analysis of the deposited data

How the results depend on the processing

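Differences of ALAD and HMOX1 kept their direction in the 12 alternatives other than turning every sign: ALAD ran from -1.05 to -0.86 (IVF minus AI), -2.01 to -1.55 (IVD minus AI) and 0.56 to 1.14 (IVF minus IVD), HMOX1 from 1.87 to 1.96, 1.18 to 1.57 and 0.35 to 0.71. With every sign turned they were 1.00, 1.81 and -0.81 for ALAD and -1.91, -1.32 and -0.59 for HMOX1, and the means became -1.56 (AI), 0.24 (IVD) and -0.57 (IVF) for ALAD and 1.93 (AI) and 0.61 (IVD) for HMOX1. Without centring the IVF correlation of the genes was 0.42. That setting moved the median of all features to 0.32 in IVD minus AI and -0.27 in IVF minus IVD, and called 10 of the other list genes in IVD minus AI (9 higher, 1 lower, against 8 and 11), 12 in IVF minus AI (6 higher, 6 lower) and 16 in IVF minus IVD (4 higher, 12 lower). With the dye-bias cluster as a block 12 were called in IVD minus AI and 9 in IVF minus IVD, and with the rows measured in every embryo 12 of 30 tested in IVD minus AI. NQO1 in IVF minus AI reversed to -0.12 with the embryo in Cy3 only (limma adjusted p = 0.515). The causes were not tested, except that the last-named row filter tests fewer genes. Embryo numbers as a replicate block left the counts at 19, 19 and 18. Same-numbered embryos of different groups had a median r of 0.0057 over 21 pairs, beside 0.0019 over other pairs. Their r ran from -0.187 to 0.213, with 3 above 0.1. No common deviation by number was thus seen, but a shared origin of single pairs cannot be told from these values.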
